A study of Mus musculus with 16 samples.

Results

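Hippocampal RNA of mice that had been shocked but still escaped was compared with that of mice left in their cages. The resilient, non-learned helpless (NLH) group and the homecage (HC) group each had 4 mice, so 8 of the 16 mice of the series entered the comparison, chosen by the sample group label alone (the titles write NH for NLH). All mice were male wild type C57BL/6 mice of 3 months, and both hippocampi of a mouse were pooled into 1 library. NLH mice received 180 inescapable foot shocks of 0.4 mA, and 24 h later 30 trials in a shuttle box in which the same shock could be escaped. HC mice received neither session and were not taken through the handling and testing procedure. A control (Ctrl) group was handled, was placed in the box without inescapable shocks, and then had the 30 escape trials. A learned helpless (LH) group had both sessions and failed to escape. All mice were killed 3 h after the test session. NLH and LH mice were separated by clustering of escape failures and latencies, so NLH is a behavioral selection among shocked mice. NLH and HC mice therefore differed in the inescapable shocks, the escape trials, the box, the handling and this selection at once, and the comparison cannot tell these apart.

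Chaperones are proteins that fold other proteins or keep them from aggregating. Those of the endoplasmic reticulum (ER) serve secreted and membrane proteins and are induced by the unfolded protein response, and those of the cytosol are induced by heat shock factor. In the hippocampus, acute stress is also known for immediate early genes, which are transcribed within minutes of neuronal firing, and for targets of glucocorticoids, the adrenal stress hormones. The question asked here was which genes and gene groups stood apart in NLH mice, and which of those values Ctrl mice, without inescapable shock, already had.

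Expression levels were FPKM (fragment counts scaled by transcript length and by library size) of 80137 transcripts, summed over the transcripts carrying each of 18287 gene names. FPKM are not counts, so no counting error can be given. Depth estimated from the steps of the values was 31010000 to 34020000 fragments in HC and 27000000 to 37490000 in NLH mice, on an assumed fragment length. Summed FPKM was 122690 to 132083 in HC and 128252 to 147192 in NLH mice, and NLH mice 2 and 3 had the highest sums of the 8. The median SD of a gene between mice, on the log2 scale, was 0.149 in HC, 0.199 in NLH and 0.360 in LH mice. Hippocampal markers were present in every mouse of both groups: Prox1, a marker of dentate granule cells, was at 8.06 to 9.74 FPKM in HC and 7.27 to 12.1 in NLH mice, and the striatal marker Drd2 did not exceed 0.470 FPKM.

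Few genes passed a test adjusted over all genes, and ER chaperones were among them. Of 18030 genes tested by limma on log2(FPKM + 0.1), 8 rose (0.0444%) and 2 fell (0.0111%) in NLH mice at an adjusted p under 0.05. The 8 that rose were Hspa5 and Calr, ER chaperones, Ndufb3 and Atp5j2, subunits of the mitochondrial respiratory chain and ATP synthase, Rps24, a ribosomal protein, Paip2, a repressor of translation that binds poly(A)-binding protein, Pakap, and the lncRNA 1700065J18Rik. The 2 that fell were Mtch1, a protein of the mitochondrial outer membrane, and Gm37240. Genes with an unadjusted limma p under 0.05 are called nominally higher or lower here, and by that looser call 1802 genes were higher (9.99%) and 344 lower (1.91%) in NLH mice.

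The excess of higher genes depended on scaling between libraries. The median log2 difference over all genes was 0.08, and 84.0% of the nominal calls were higher in NLH mice. After division by median-ratio size factors, which were 0.926 to 1.005 in HC and 0.965 to 1.116 in NLH mice, the median was 0.00 and the nominal calls were 1021 higher (5.66%) and 905 lower (5.02%), so that 53.0% were higher. Size factors gave 26 genes at an adjusted p under 0.05, 19 higher (0.105%) and 7 lower (0.0388%), and 9 of the 10 were among them. The adjusted count also moved with single mice, and was 1, 2, 1 and 5 without HC mouse 1, 2, 3 and 4 and 14, 2, 1 and 23 without NLH mouse 1, 2, 3 and 4. Among 15 alternatives computed from FPKM summed over named transcripts, Mtch1 passed in 15, Calr in 5 and Hspa5 in 4, and the difference of each kept its direction. Summed over the whole assembled locus, an alternative chosen after the data were seen, Mtch1 did not pass (log2 -0.11, adjusted limma p 0.670), and Calr and Hspa5 did (adjusted limma p 0.0342 and 0.0440).

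**Figure D1:**
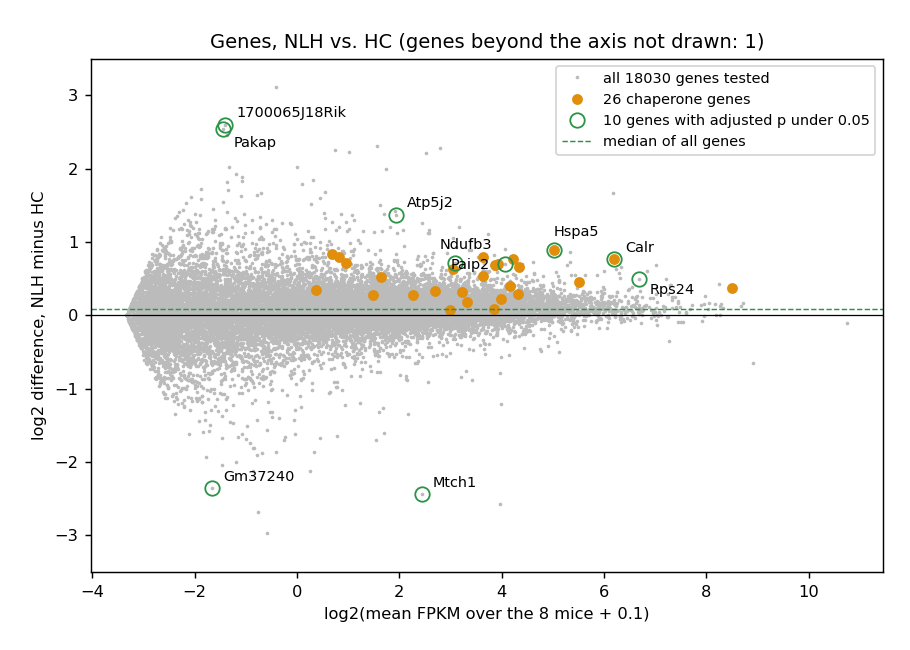
Each point is a gene, with log2(mean FPKM over the 8 mice + 0.1) on the horizontal axis and the log2 difference, NLH minus HC, on the vertical axis. The 26 chaperone genes (orange) all lie above 0, 10 genes with adjusted p under 0.05 are circled, and the dashed line marks the median of all genes, 0.08.

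Chaperones had the largest share of higher members among the gene lists examined. Of 26 members measured, 20 were nominally higher and 0 lower in NLH mice, against 9.99% higher among all genes, and 2 of them rose past the adjusted threshold. The median log2 difference was 0.48, against 0.08 over all genes, and 16 members did not overlap between groups, against 6.18% of all genes (and 1.06% not overlapping the other way). With size factors 17 were nominally higher and the median was 0.39. Leaving out each mouse in turn gave 17 to 20. Sorted by compartment after the values were seen, 8 of 9 ER chaperones were nominally higher (median 0.70) and 11 of 15 of the cytosol and nucleus (median 0.37). Hspa1a and Hspa1b, classic heat shock genes, were not among the measured members.

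The ER stress response element, the site that ATF6 binds together with NF-Y in the unfolded protein response, lay before 5 ER chaperone genes in the promoter windows of RefSeq (GRCm38.p6, from 250 bases before to 50 after a start). The motif was searched on both strands as CCAAT, then 9 bases of any kind, then CCACG. It lay in 39 of 32851 windows of all genes, 0.119%. Of the 26 chaperone genes, 22 had a window, and 5 of these held the motif. Manf, Hspa8, Hsf1 and Cryab had no entry. The ER chaperones Pdia4, Sdf2l1 and Dnajb9 had windows without the motif, though Pdia4 and Sdf2l1 were also higher in NLH mice without overlap. The sites are printed because these 5 genes include both chaperones that rose past the adjusted threshold. Each is given 5′ to 3′ on the gene's own strand with 30 bases on either side and the fixed letters of the motif in capitals.
Hspa5, chr2:34771995-34772073, + strand: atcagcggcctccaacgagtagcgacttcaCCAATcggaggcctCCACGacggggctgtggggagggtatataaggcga
Calr, chr8:84847045-84847123, - strand: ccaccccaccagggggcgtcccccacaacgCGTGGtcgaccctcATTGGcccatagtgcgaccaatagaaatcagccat
Pdia6, chr12:17266461-17266539, + strand: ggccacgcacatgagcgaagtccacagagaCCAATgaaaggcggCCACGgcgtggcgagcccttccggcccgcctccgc
Creld2, chr15:88819490-88819568, + strand: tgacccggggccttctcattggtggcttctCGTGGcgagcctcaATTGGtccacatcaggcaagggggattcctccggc
Hsp90b1, distal site, chr10:86705608-86705686, - strand: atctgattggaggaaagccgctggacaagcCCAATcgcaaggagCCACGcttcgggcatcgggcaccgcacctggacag
Hsp90b1, proximal site, chr10:86705503-86705581, - strand: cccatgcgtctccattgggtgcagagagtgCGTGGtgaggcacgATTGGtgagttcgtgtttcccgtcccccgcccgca
The first base of the motif was 65 bases before the start of Hspa5, 162 before that of Calr, 98 before Pdia6, 126 before Creld2, and 212 and 107 before Hsp90b1. Calr, Creld2 and the proximal site of Hsp90b1 held it on the opposite strand. The heat shock element (GAA, TTC and GAA with 2 bases between) lay in 198 windows, 0.603%, and in those of 4 chaperone genes, Chordc1, Hsph1, Hspd1 and Hspe1. The sites of Hspd1 and Hspe1 are the same stretch of DNA, counted once for each gene. A match is a description of the letters and does not show that a factor bound there.

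Hspa5 encodes BiP, the main Hsp70 of the ER and the sensor partner of the unfolded protein response. Its level was 22.7, 22.4, 21.3 and 23.3 FPKM in the HC mice and 41.9, 39.7, 53.7 and 33.6 in the NLH mice. Every NLH mouse was above every HC mouse, and NLH mouse 3 was highest. The difference was 0.89 on the log2 scale (SE 0.12), 1.85-fold, with an adjusted limma p of 0.0483.

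Calr encodes calreticulin, a calcium-binding lectin chaperone of the same compartment. HC mice stood close together at 52.9, 54.8, 53.4 and 54.1 FPKM, and NLH mice were at 86.4, 99.3, 105 and 78.6. The groups did not overlap. The log2 difference was 0.77 (SE 0.09), 1.70-fold, with an adjusted limma p of 0.0371. With single mice left out, the adjusted p of Calr ran from 0.0132 without NLH mouse 4 to 0.151 without NLH mouse 2.

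Other ER chaperones had values apart without passing the adjusted threshold. Pdia6, a disulfide isomerase, was at 11.1, 11.4, 9.90 and 11.8 FPKM in HC and 18.4, 17.3, 20.2 and 15.7 in NLH mice (log2 0.69, adjusted limma p 0.0538). Creld2, a low-abundance ER stress gene, was at 1.00 to 1.35 FPKM in HC and 2.04 to 2.21 in NLH mice. Hsp90b1, the Hsp90 of the ER, was at 37.1 to 40.3 FPKM in HC and 43.2 to 63.7 in NLH mice. In each of these genes the lowest NLH mouse was above the highest HC mouse. Manf, Pdia4 and Sdf2l1 also did not overlap, with log2 differences of 0.70, 0.63 and 0.71, and Dnajb9 did (log2 0.18, unadjusted limma p 0.159).

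Among the chaperones of the cytosol, several cochaperones of Hsp70 and Hsp90 stood apart. Stip1, which hands clients from Hsp70 to Hsp90, was at 10.3, 8.25, 7.49 and 10.1 FPKM in HC and 14.6, 16.4, 16.8 and 14.7 in NLH mice. Dnaja1, an Hsp40 partner of Hsp70, was at 15.9, 15.7, 14.5 and 15.6 in HC and 28.4, 25.5, 24.1 and 20.6 in NLH mice. Hsph1, a nucleotide exchange factor of Hsp70, was at 12.7 to 15.5 in HC and 19.3 to 30.1 in NLH mice. None of these 3 genes overlapped between groups. Their log2 differences were 0.79, 0.66 and 0.76, and the adjusted limma p-values were 0.0538, 0.0579 and 0.0870. The abundant constitutive Hsp70, Hspa8, was at 293 to 349.8 FPKM in HC and 367 to 440.7 in NLH mice (log2 0.37), the Hsp110 family member Hspa4l had a log2 difference of 0.39, and Hsf1, the heat shock factor itself, one of 0.52. The small heat shock protein Hspb1 had a difference of 0.83 but overlapped between groups. The mitochondrial Hspd1 (0.08) and Cryab (0.08), also a small heat shock protein, differed little, and both overlapped.

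**Figure D2:**
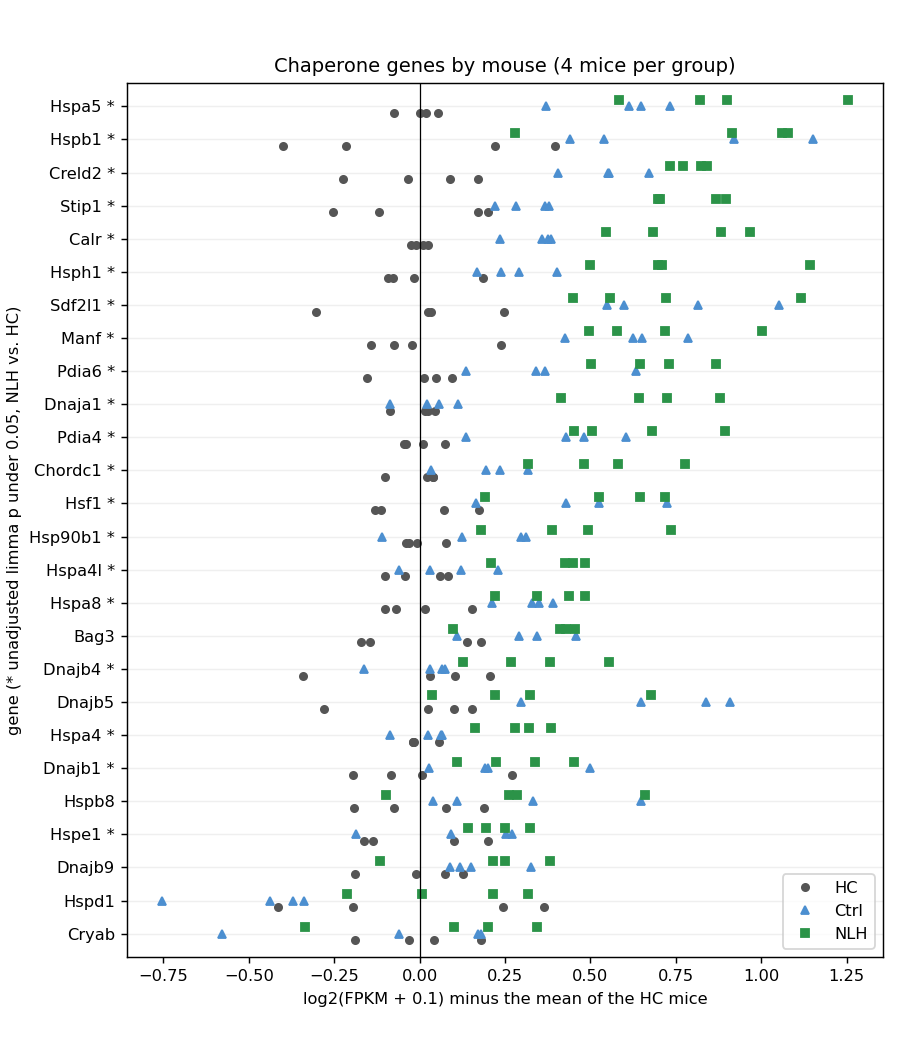
Each row is a chaperone gene and each symbol a mouse, as log2(FPKM + 0.1) minus the mean of the 4 HC mice, with stars marking an unadjusted limma p under 0.05 in NLH vs. HC. NLH mice (squares) lie to the right of HC mice (circles) without overlap in 16 of 26 genes, and Ctrl mice (triangles) lie between them in many ER genes but near HC in Dnaja1.

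The Ctrl mice give the level after handling, the box and the escape trials, without inescapable shock. Ctrl vs. HC and NLH vs. HC share the HC mice, so their values are set side by side and NLH vs. Ctrl is the test of the difference. That test came from a fit over all 16 mice and thus used the larger spread of the LH mice. It gave 1 gene at an adjusted p under 0.05, 1700065J18Rik, and nominally 811 genes higher (4.5%) and 190 lower (1.05%) in NLH mice. That 1 gene was listed at 0 in every HC, Ctrl and LH mouse, so its spread in this fit came from the NLH mice alone. In Ctrl vs. HC, 0 genes passed the adjusted threshold, and nominally 274 genes were higher (1.52%) and 198 lower (1.1%), among them 10 chaperones higher and 1, Hspd1, lower. Ctrl vs. HC also came from the fit over 16 mice, where the SE of Hspa5 was 0.21, against 0.12 in the 8-mouse fit of NLH vs. HC. Its counts and those of NLH vs. HC thus cannot be set against each other. Relative to HC, ER chaperones had a median log2 difference of 0.41 in Ctrl, 0.70 in NLH and 0.61 in LH mice. Those of the cytosol and nucleus had 0.27, 0.37 and 0.43. Over all 26 chaperones the median difference of NLH from LH mice was 0.01. In NLH vs. Ctrl, 1 of 9 ER chaperones and 7 of 15 of the cytosol and nucleus were nominally higher, the ER member being Calr.

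Hspa5 was at 29.0, 34.3, 35.2 and 37.3 FPKM in Ctrl mice, above every HC mouse and overlapping the NLH mice. Its NLH vs. Ctrl difference was 0.30 on the log2 scale (unadjusted limma p 0.183). Calr was at 63.4, 70.2, 69.8 and 68.9 FPKM in Ctrl mice, between HC and NLH with no overlap on either side, and LH mice were at 68.3 to 119.7. The difference of NLH from Ctrl was 0.43 (unadjusted limma p 0.00996, adjusted 0.666). Dnaja1 stood at 14.5 to 16.7 FPKM in Ctrl mice, the level of HC, and was 0.64 higher in NLH mice (unadjusted limma p 0.000786, adjusted 0.410). Stip1 and Hsph1 were 0.48 and 0.49 higher in NLH than in Ctrl mice (unadjusted limma p 0.00339 and 0.00165). LH mice were at 26.6 to 66.8 FPKM for Hspa5, 11.7 to 18.6 for Stip1 and 14.6 to 28.8 for Dnaja1. In each of these genes they covered the range of the NLH mice. The median deviation of a mouse from the HC mean over the 26 chaperones, on the log2 scale, was -0.09 to 0.08 in HC, 0.13 to 0.34 in Ctrl, 0.42 to 0.65 in NLH and 0.08 to 0.77 in LH mice. Without scaling between libraries, NLH and Ctrl mice did not overlap in this median, and LH mice covered the range of both. Over all genes the same median was -0.05 to 0.06 in Ctrl and -0.01 to 0.17 in NLH mice. NLH mouse 2 had 0.45 over the chaperones and 0.15 over all genes, and Ctrl mouse 4 had 0.34 and 0.03. The gap between NLH and Ctrl mice thus depended on scaling.

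**Figure D3:**
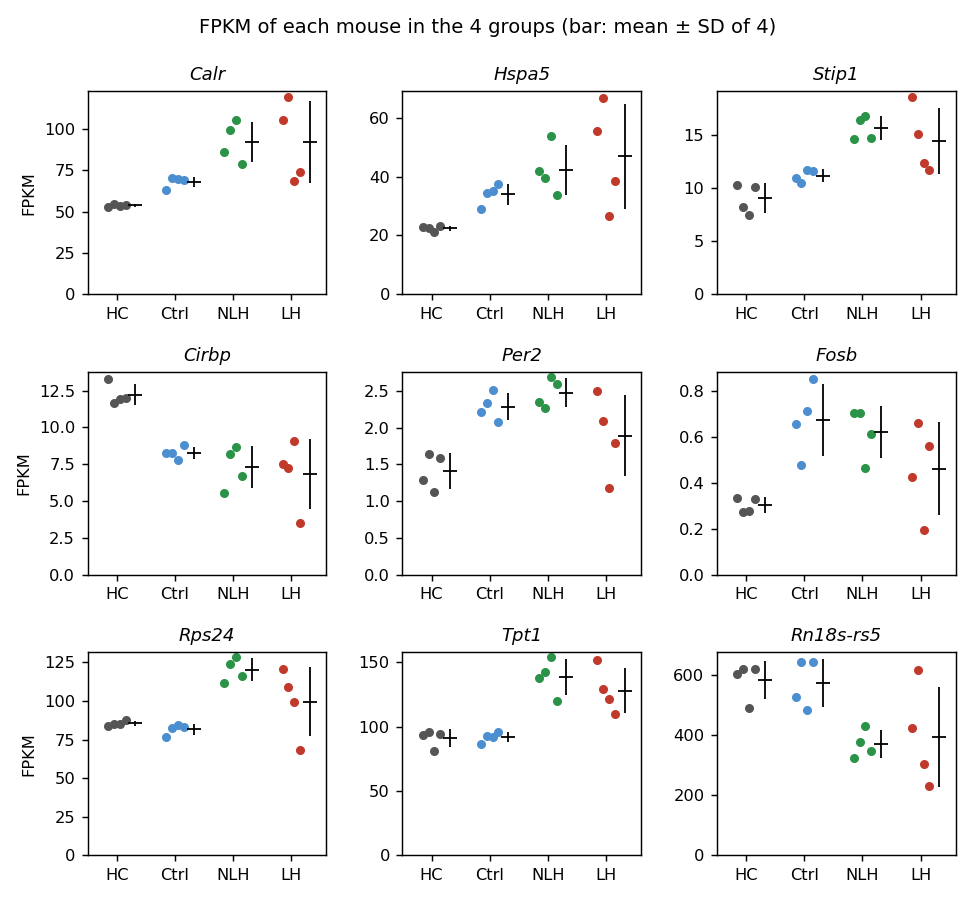
FPKM of each mouse for 9 genes in the HC, Ctrl, NLH and LH groups, with a black tick for the mean and a line for the SD of the 4 mice. Calr and Stip1 are higher in NLH than in Ctrl mice, Cirbp, Per2 and Fosb have like values in Ctrl and NLH mice, and in Rps24, Tpt1 and Rn18s-rs5 the Ctrl mice lie near HC and the LH mice overlap the NLH mice.

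Part of the ribosomal protein genes were higher, by a smaller margin. Of 46 measured, 17 were nominally higher and 1 lower, with a median log2 difference of 0.21 that was 0.11 with size factors, against 9.99% higher and 1.91% lower of all genes. With size factors 15 were higher and 3 lower, against 5.66% and 5.02% of all genes, and without HC mouse 3, 11 were higher. In Ctrl vs. HC the median was 0.03, and in NLH vs. Ctrl 10 were higher and 0 lower, against 4.5% and 1.05% of all genes. Rps24, a small-subunit protein, was at 83.7, 85.2, 85.1 and 87.8 FPKM in HC and 112, 124, 129 and 116 in NLH mice, with Ctrl mice at 76.5 to 84.2. No NLH mouse fell within the range of HC or Ctrl, and LH mice, at 68.5 to 121, overlapped both sides. The log2 difference from HC was 0.49 (SE 0.07, adjusted limma p 0.0483) and that from Ctrl 0.56 (unadjusted limma p 0.000518). Rpl31, a large-subunit protein outside that list, was at 45.6, 45.7, 45.3 and 51.2 in HC and 61.4, 68.9, 74.6 and 69.7 in NLH mice (log2 0.55, adjusted limma p 0.0538). Rps19 was the 1 member lower, from a mean of 37.6 to 29.6 FPKM.

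Tpt1, the translationally controlled tumor protein, whose mRNA is regulated together with those of ribosomal proteins, was at 93.5, 95.8, 81.1 and 94.5 FPKM in HC and 138, 142, 154 and 119.8 in NLH mice. Ctrl mice were at 86.3 to 95.7, so NLH mice were above both groups without overlap. LH mice, at 151, 129, 122 and 109 FPKM, were also above every HC and Ctrl mouse and overlapped the NLH mice (NLH vs. LH 0.12, unadjusted limma p 0.263). Its log2 difference was 0.60 from HC (adjusted limma p 0.0579) and 0.59 from Ctrl (unadjusted limma p 3.14e-05, adjusted 0.0831). In the opposite direction, Rn18s-rs5, an 18S ribosomal RNA sequence, was at 605, 622, 490.5 and 621 FPKM in HC and 326, 379, 432 and 347 in NLH mice. The groups did not overlap, and Ctrl mice were at 485 to 644. LH mice were spread from 232 to 617, and NLH vs. LH was 0.00 (unadjusted limma p 0.995). The difference was -0.66 (adjusted limma p 0.0677, and 0.00525 with size factors). Ribosomal RNA left in a total RNA library depends on its removal as well as on the tissue, and its part in these values was not tested.

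Nuclear genes of the respiratory chain had 9 members nominally higher and 2 lower of 46, against 9.99% and 1.91% of all genes, with a median log2 difference of 0.14. With size factors the counts were 5 and 4, against 5.66% and 5.02% of all genes, and the median 0.03. The number higher was 5 without NLH mouse 3, where the median was 0.09, and 14 without NLH mouse 4. Ndufb3, an accessory subunit of complex I, was at 6.14, 6.68, 5.9 and 6.5 FPKM in HC and 9.71, 10.7, 11.4 and 9.74 in NLH mice. The lowest NLH mouse was above the highest HC mouse and above every Ctrl mouse, which were at 7.04 to 8.18, while LH mice were at 8.73 to 10.5. The log2 difference from HC was 0.71 (SE 0.09, adjusted limma p 0.0428). Atp5j2, a membrane subunit of ATP synthase, was at 2.04, 1.91, 1.5 and 2.81 in HC and 4.64, 6.81, 5.38 and 4.88 in NLH mice (log2 1.37, SE 0.19, adjusted limma p 0.0483). Both were also higher than in Ctrl mice, by 0.47 and 1.02 (unadjusted limma p 0.000218 and 0.0138). Cox8a and Sdhc were the 2 lower members.

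Genes lower in NLH mice were fewer, and among those with a mean of at least 1 FPKM only Mtch1 passed the adjusted threshold. Cirbp, an RNA-binding protein known for induction by cold and repression by heat, was at 13.3, 11.7, 12.0 and 12.0 FPKM in HC and 5.57, 8.23, 8.68 and 6.71 in NLH mice. The groups were apart, and Ctrl mice, at 7.78 to 8.82, were also below HC. The log2 difference was -0.76 (SE 0.14, adjusted limma p 0.0882, and 0.0215 with size factors), and NLH and Ctrl differed by -0.20 (unadjusted limma p 0.372). Pllp, a myelin protein, was at 12.6, 12.6, 11.4 and 9.97 in HC and 4.43, 7.90, 7.37 and 6.60 in NLH mice, with Ctrl at 6.67 to 7.2. Mbip, a regulator of the MAP3K12 pathway, was at 2.02 to 2.49 in HC, 1.16 to 1.52 in NLH and 1.24 to 1.76 in Ctrl mice. In Cirbp, Pllp and Mbip, then, Ctrl mice were at the level of NLH mice.

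Dusp7, a phosphatase of ERK, was at 5.80, 7.70, 7.62 and 9.20 FPKM in HC and 2.93, 4.34, 4.83 and 3.94 in NLH mice, and Ctrl mice were at 6.14 to 8.57. LH mice were at 4.23 to 12.7. Gabarapl2, an autophagy protein of the ATG8 family, was at 30.9, 30.2, 30.8 and 31.6 in HC and 22.5, 22.2, 26.5 and 19.1 in NLH mice, with Ctrl at 26.5 to 32.9 and LH at 18.9 to 32.7. In these 2 genes NLH mice were below HC mice without overlap and Ctrl mice were at or near HC. The NLH vs. Ctrl differences were -0.78 and -0.39 (unadjusted limma p 0.0106 and 0.0126). Plk5, Dus1l and B3gat3 were the remaining mRNA genes of the 12 lower genes with the smallest p, with log2 differences of -1.01, -0.83 and -0.47 and adjusted limma p-values of 0.132, 0.150 and 0.158.

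Several genes differed in their named transcripts but not over the whole assembled locus, which also holds transcripts without an Ensembl identifier. Mtch1 (chr17:29332072-29347934 in mm10, - strand) was at 9.65, 8.51, 8.67 and 9.32 FPKM in HC and 1.78, 1.55, 1.28 and 1.78 in NLH mice. The groups were far apart, with a log2 difference of -2.44 (SE 0.12, adjusted limma p 2.95e-05). Ctrl mice split, with 3.22 and 3.47 in mice 1 and 2 and 9.17 and 7.55 in mice 3 and 4. Over its locus of 12 transcripts, Mtch1 was at 52.0 ± 4.87 FPKM in HC and 48.2 ± 4.93 in NLH mice (SD of 4 mice), a log2 difference of -0.11 (SE 0.09). Most of the change lay in ENSMUST00000095427.10, at 6.10 to 7.71 FPKM in HC and at most 0.474 in NLH mice.

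Gm37240 was at 0.255, 0.334, 0.491 and 0.655 FPKM in HC mice and at values within rounding of 0 in the NLH mice, the highest being 3.4e-23. Its locus, shared with Arfip1, Fam160a1 and Glt28d2, was at 5.91 ± 0.302 FPKM in HC and 5.93 ± 0.849 in NLH mice. Pakap was at most 7.93e-05 in HC mice and at 0.197, 0.792, 0.453 and 0.693 in NLH mice, and its locus, shared with Akap2 and Palm2, at 12.6 ± 1.07 and 13.3 ± 1.90. For these 2 genes, how reads were divided among transcripts and the amount of each gene's RNA cannot be told apart. The locus of Mtch1 names no other gene, and its sum differed by only -0.11 on the log2 scale. How reads were divided among the named and unnamed transcripts of Mtch1 was not tested. Paip2 was at 13.2, 11.9, 12.2 and 13.3 in HC and 19.8, 24.2, 18.3 and 20.3 in NLH mice (log2 0.70), and over its locus the difference was 0.16 (29.8 ± 2.33 and 33.3 ± 2.53).

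Over whole loci, Calr kept a difference of 0.75, Hspa5 0.86, Rps24 0.48, Atp5j2 1.37 and Ndufb3 0.71, each with an adjusted limma p under the threshold (0.0342 to 0.0440). By this sum 10 loci passed, 9 higher and 1 lower, and Stip1 (adjusted limma p 0.0355), Rpl31 and Pdia6 (each 0.0498) joined them. 1700065J18Rik, a locus of 1 transcript, was listed at 0 in all HC, Ctrl and LH mice and at 1.06, 0.409, 0.429 and 0.330 FPKM in the NLH mice. It was thus the 1 gene past the adjusted threshold that was listed above 0 in NLH mice alone. Against HC it passed in 5 of 14 alternatives, with an adjusted limma p of up to 0.151.

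**Figure D4:**
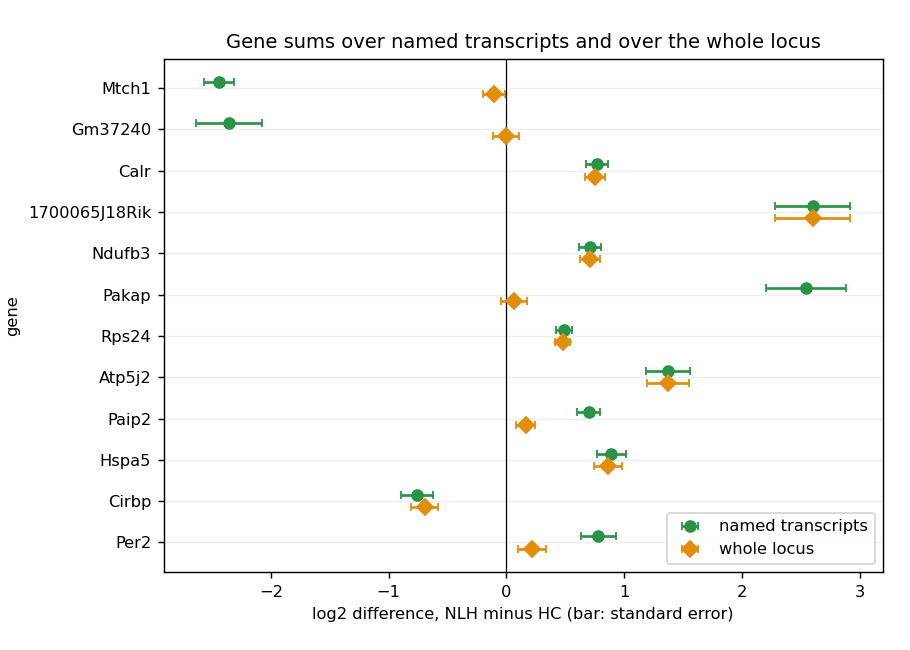
Log2 difference, NLH minus HC, with its standard error for 12 genes, from FPKM summed over named transcripts (circles) and over the whole locus (diamonds). The symbols coincide for Calr, Hspa5, Rps24 and Ndufb3 and part for Mtch1, Gm37240, Pakap, Paip2 and Per2.

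Part of the immediate early genes, markers of recent neuronal firing, were higher 3 h after the test. Of 21 measured, 8 were nominally higher and 0 lower, with a median log2 difference of 0.11, against 9.99% and 1.91% of all genes. With size factors the counts were 4 and 1, against 5.66% and 5.02%, and the median was 0.03. With single mice left out the median ran from 0.07 (without NLH mouse 1) to 0.23 (without HC mouse 4), and it was 0.18 without HC mouse 2 or NLH mouse 2 or 4. The number higher was 5 without HC mouse 3, 3 without NLH mouse 1 and 5 without NLH mouse 3. Fosb, a slow AP-1 subunit, was at 0.335, 0.272, 0.278 and 0.330 FPKM in HC and 0.704, 0.704, 0.464 and 0.613 in NLH mice (log2 0.83, adjusted limma p 0.167). Fos was at 0.480 to 0.976 in HC and 0.759 to 2.04 in NLH mice, and Arc, a synaptic immediate early gene, at 5.40 to 7.96 and 7.10 to 10.6. Fosb separated the groups, and Fos and Arc overlapped. Npas4, which responds to synaptic calcium, had a log2 difference of -0.14 (unadjusted limma p 0.532). Ctrl mice had Fosb at 0.477 to 0.853 and Arc at 9.28 to 13.9 FPKM, and in NLH vs. Ctrl 0 immediate early genes were nominally higher and 1 lower. Late response genes had 6 of 26 nominally higher and 0 lower (median 0.16), and 3 and 0 with size factors (median 0.07), against 9.99% of all genes higher and 5.66% with size factors. Among those higher were Rgs2 (0.46), a regulator of G protein signaling, and Pcsk1 (0.51), a prohormone convertase.

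Glucocorticoid targets were mixed. Of 23 measured, 6 were nominally higher and 2 lower, with a median of 0.28, against 9.99% and 1.91% of all genes. The counts with size factors were 4 and 3, against 5.66% and 5.02%, with a median of 0.21. The median was 0.15 without NLH mouse 3 and 0.18 without HC mouse 4. Mt1, a metallothionein, was at 46.0, 56.6, 46.8 and 53.4 FPKM in HC and 62.1, 80.7, 82.8 and 85.3 in NLH mice, without overlap (log2 0.61, adjusted limma p 0.104). Sult1a1, a sulfotransferase, was at 1.29, 1.64, 1.87 and 1.69 in HC and 2.09, 4.24, 5.23 and 3.87 in NLH mice (log2 1.14, adjusted limma p 0.133). Ctrl mice also lay above HC in both, at 60.7 to 76.1 for Mt1 and 2.52 to 4.24 for Sult1a1. Fkbp5, a cochaperone that limits the glucocorticoid receptor, was at 0.619, 3.44, 2.03 and 3.93 in HC and 2.20, 5.00, 6.91 and 5.84 in NLH mice. The groups overlapped, and its difference of 1.12 had an SE of 0.54 (adjusted limma p 0.449). Sgk1, a kinase induced by corticosteroids, was lower, at 18.3, 23.5, 18.7 and 21.8 in HC and 9.49, 18.7, 20.3 and 10.6 in NLH mice, low in NLH mice 1 and 4 only. Of the receptors, Nr3c1 had a log2 difference of 0.21 (unadjusted limma p 0.0840) and Nr3c2 one of -0.20 (unadjusted limma p 0.0403). Fkbp4, Hsp90aa1 and Hsp90ab1, chaperones of these receptors, were nominally higher by 0.35, 0.25 and 0.21. With size factors they differed by 0.25, 0.15 and 0.11, and Hsp90aa1 was not nominally higher (unadjusted limma p 0.104). The list of these receptors, their chaperones and stress peptides had 3 of 14 nominally higher and 1 lower, and 2 and 1 with size factors.

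Circadian clock genes did not move one way. Of 22, 5 were nominally higher and 1 lower, against 9.99% and 1.91% of all genes, and the median was 0.08, that of all genes. Size factors gave counts of 4 and 3, against 5.66% and 5.02%, with a median of -0.02. The median was 0.03 without NLH mouse 2 and 0.18 without NLH mouse 1. Per2, a repressor of the clock, was at 1.29, 1.64, 1.12 and 1.59 FPKM in HC and 2.34, 2.27, 2.68 and 2.59 in NLH mice (log2 0.78, adjusted limma p 0.114). Ctrl mice, at 2.07 to 2.50, overlapped the NLH mice. Over the whole locus, Per2 was at 3.93 ± 0.204 and 4.62 ± 0.760, a log2 difference of 0.21. Arntl, the activator BMAL1, was at 2.24 to 2.84 in HC and 3.42 to 3.93 in NLH mice, and Dbp, a clock output gene, was the 1 lower member (log2 -0.41). Per1 had a difference of -0.30 (unadjusted limma p 0.143).

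**Figure D5:**
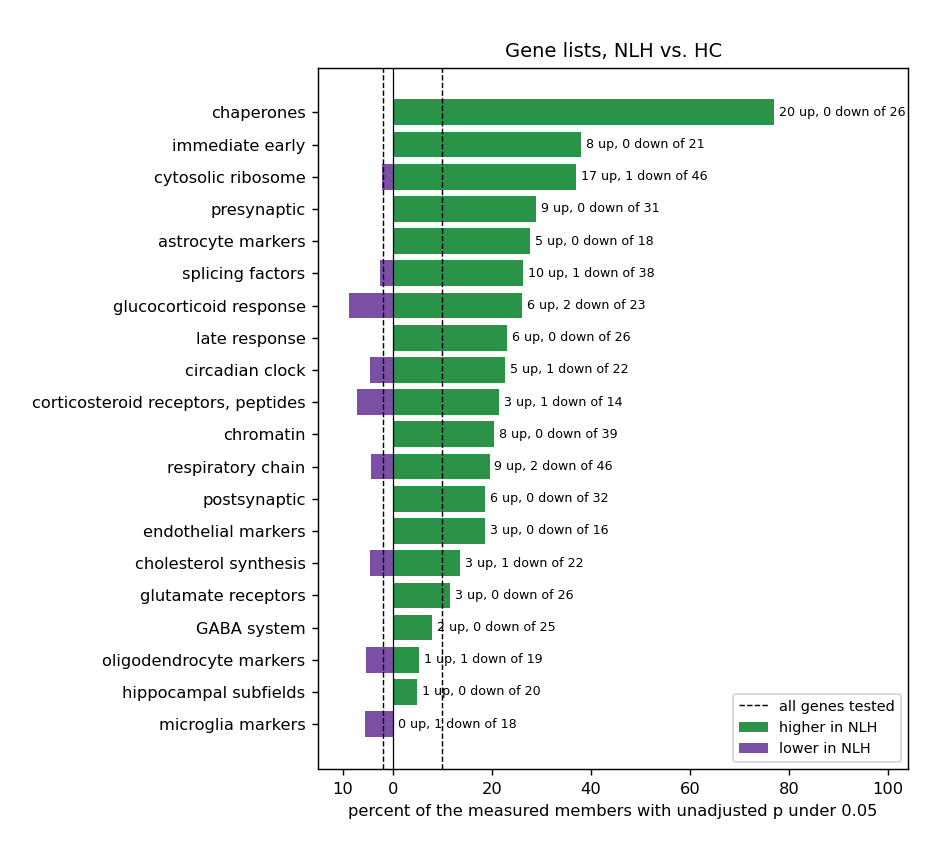
Percent of the measured members of each gene list with an unadjusted limma p under 0.05, higher in NLH mice to the right and lower to the left, with counts beside the bars. Dashed lines mark all genes tested, 9.99% higher and 1.91% lower, and chaperones, with 20 of 26 higher, extend farthest.

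Some synaptic genes were higher, by small amounts. Presynaptic genes had 9 of 31 nominally higher and 0 lower (median log2 0.15), and postsynaptic genes 6 of 32 and 0 (median 0.16), against 9.99% and 1.91% of all genes. With size factors the counts were 4 and 1 (median 0.05) and 5 and 0 (median 0.06), against 5.66% and 5.02%. The presynaptic count was 4 without NLH mouse 2 and 18 without NLH mouse 1, and the postsynaptic count 10 without NLH mouse 4. Psd3 and Baiap2, of the postsynaptic list, differed by 0.32 and 0.31, and Erc2 and Dnm1, of the active zone and of vesicle recycling, each by 0.36. Glutamate receptor genes (3 of 26 higher, among them Cacng3 at 0.46 and Grm8 at 0.49) and GABA system genes (2 of 25, Gabra2 and Vip) had medians of 0.07 and 0.08, near that of all genes, and of -0.03 and -0.02 with size factors. With size factors the glutamate counts were 2 and 2 and the GABA counts 1 and 0. The glutamate count was 6 without NLH mouse 1 and 5 without NLH mouse 4, and the GABA count 1 without HC mouse 1 or 2 and 4 without NLH mouse 4. With single mice left out the glutamate median ran from 0.03 (without NLH mouse 3) to 0.13 (without NLH mouse 4) and the GABA median from 0.05 (without NLH mouse 2) to 0.14 (without NLH mouse 4).

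Chromatin regulators had 8 of 39 nominally higher and 0 lower (median 0.16), and 4 and 0 with size factors (median 0.06), against 9.99% of all genes higher and 5.66% with size factors. Among those higher were the histone methyltransferase Kmt2a (0.39) and the remodeler Smarca2 (0.49). The chromatin count was 5 without HC mouse 3 or NLH mouse 2. Splicing factors had 10 of 38 nominally higher and 1, Srrm2, lower (median 0.14), and 7 and 4 with size factors (median 0.04), against 5.66% and 5.02% of all genes with size factors. The number of splicing factors higher was 16 without NLH mouse 4. Tra2a, a splicing activator, was at 7.19 to 7.96 FPKM in HC and 9.83 to 11.1 in NLH mice (log2 0.47, adjusted limma p 0.0870), with Ctrl at 9.32 to 10.6, overlapping NLH. Cholesterol synthesis genes had 3 of 22 nominally higher and 1 lower, and 2 and 1 with size factors, a share near that of all genes (9.99% higher), with 5 higher without HC mouse 4 and 7 without NLH mouse 4. The study assayed some genes by real time PCR and chose them on these samples, so their counts are not independent evidence. Of the 13 measured here, 3 were nominally higher and 0 lower (3 and 2 with size factors): Prkacb, a catalytic subunit of protein kinase A, by 0.30, the scaffold Dlg2 by 0.21, and a lncRNA at no more than 0.0173 FPKM in HC and at 6.76e-05 to 1.14 in NLH mice, with overlap. Bdnf differed by 0.12 (unadjusted limma p 0.317).

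LncRNA genes had about as many higher as lower members. Of 2996 tested, 83 were nominally higher (2.77%) and 86 lower (2.87%), with a median log2 difference of -0.02, and with size factors 62 were higher and 131 lower. Of 14688 mRNA genes, 1710 were nominally higher and 253 lower, and 951 and 767 with size factors, and the difference between the 2 classes was not tested. Pantr1, a lncRNA beside the neural gene Pou3f3, was at 9.14, 12.0, 8.90 and 14.1 FPKM in HC and 13.0, 19.0, 20.1 and 20.8 in NLH mice, overlapping in 1 NLH mouse (log2 0.72). Gm44026 was at 2.49, 3.74, 3.08 and 2.35 in HC and 1.32, 1.49, 1.90 and 1.63 in NLH mice, and Snhg4, a small nucleolar RNA host gene, at 3.19, 3.48, 3.34 and 3.27 in HC and 2.09, 2.63, 2.16 and 2.32 in NLH mice. These 2 were apart between groups (log2 -0.83 and -0.52, adjusted limma p 0.130 and 0.136). Nuclear lncRNAs had 1 of 19 higher, Tug1, and 1 lower, Epb41l4aos, and 0 and 2 with size factors, and 0 were higher without HC mouse 2, 3 or 4 or NLH mouse 2.

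Markers of other cell types were measured beside these results. In bulk tissue, fewer cells of a type and less RNA per cell cannot be told apart. Astrocyte markers had 5 of 18 nominally higher and 0 lower (Clu, Apoe, Fgfr3, Sox9 and Aldoc), with a summed level of 1118 to 1198 FPKM in HC and 1138 to 1542 in NLH mice, and the counts were 3 and 1 with size factors and 10 higher without NLH mouse 1, while the defining marker Gfap was at 38 to 45.6 and 35.6 to 47.0. Over all genes 9.99% were higher and 1.91% lower, and 5.66% and 5.02% with size factors. Endothelial markers had 3 of 16 higher, and 3 with size factors, among them Abcb1a, a blood-brain barrier transporter, by 0.79. Oligodendrocyte markers had 1 of 19 higher and 1, Opalin, lower (median -0.03), and 0 and 5 with size factors (median -0.12), and their sum was 472 to 520.5 in HC and 485 to 606 in NLH mice. With single mice left out their median ran from -0.07 (without NLH mouse 3) to 0.05 (without NLH mouse 4), also turning above 0 without HC mouse 2 or NLH mouse 1 or 2, and 2 were higher without NLH mouse 1 or 4. Microglia markers had 0 of 18 higher and 1 lower (median 0.02), and 0 and 3 with size factors (median -0.08), with Cx3cr1 at 5.14 to 5.69 and 4.98 to 5.87. The microglia median ran from -0.04 (without NLH mouse 3) to 0.07 (without NLH mouse 4), also turning below 0 without HC mouse 3, and 1 was higher without NLH mouse 4. Subfield markers of the hippocampus had 1 of 20 higher, and 0 with size factors and without any 1 of HC mice 1 to 4 or NLH mouse 2, and 2 without NLH mouse 1, 3 or 4, and choroid plexus markers 0 of 14, but the choroid plexus sum varied from 24.8 to 141 in HC and 28.3 to 232 in NLH mice, and its marker Ttr was near 0 in HC mouse 2 and NLH mouse 4. Striatal markers had 0 of 14 higher, those of thalamus and habenula 2 of 12, of cortical layers 3 of 12, of neurogenesis 2 of 13 and of red blood cells 1 of 5. With size factors these counts were 0, 1, 1, 0 and 1. The cortical count was 0 without HC mouse 1, 1 without NLH mouse 2 and 2 without HC mouse 2, 3 or 4 or NLH mouse 3, and the neurogenesis count 0 without HC mouse 1 or NLH mouse 2 and 1 without HC mouse 2 or 4 or NLH mouse 4. The thalamic count was 2 without NLH mouse 1 or 3 and 1 without any other mouse, the striatal count 2 without NLH mouse 1 and 1 without NLH mouse 3, and that of red blood cells 2 without HC mouse 1 and 0 without HC mouse 3. The part of these markers in the differences above was not tested.

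Single transcripts gave larger differences than gene sums, mostly where 1 isoform was near 0 in 1 group. Of 79347 transcripts tested by limma, 21 rose (0.0265%) and 11 fell (0.0139%) in NLH mice at an adjusted p under 0.05, and nominally 4210 were higher (5.31%) and 2337 lower (2.95%). With size factors, nominally 3453 were higher and 3031 lower, so that 53.3% of the calls were higher, against 64.3% without. In 29 of the 32 the mean of 1 group was under 0.1 FPKM. In 9 of the 32 the sum over the gene was nominally different in the same direction. For the transcripts named below, how reads were divided among isoforms and the amount of each isoform cannot be told apart. The count was 19 without HC mouse 1 and 50 without NLH mouse 4. By the test that the study's methods used, an equal variance test on FPKM, 3799 transcripts had a p under 0.05 and were higher (4.79%) and 2378 were lower (3.0%), of which 148 passed after Benjamini-Hochberg adjustment. With size factors this test gave 3087 higher and 3128 lower, so the excess of higher transcripts depended on scaling. The unadjusted calls of this test without size factors comprised 4244 of 55937 mRNA transcripts, 170 of 4194 lncRNA transcripts, 1746 of 18780 without an identifier and 17 of 436 others.

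Rps18, a protein of the small ribosomal subunit, differed in the FPKM assigned to its isoforms and little in its total. Transcript ENSMUST00000174745.7 was at 18.7, 21.2, 19.7 and 20.3 FPKM in HC mice and at 0.000318, 0.250, 0.00313 and 0.0158 in NLH mice (log2 -7.13, SE 0.39, adjusted limma p 0.00164). Transcript ENSMUST00000008812.7 was at 9.35, 11.6, 6.46 and 4.43 in HC and 30.2, 33.7, 32.6 and 32.1 in NLH mice (log2 2.09, adjusted limma p 0.0832). As shares of the gene, the first went from 58.1% ± 4.32 to 0.187% ± 0.337 and the second from 23.0% ± 8.44 to 91.9% ± 1.82 (SD of 4 mice), with a log2 difference of 0.02 over the locus. Ctrl mice had the first at 7.03 to 19.2 FPKM, and of the LH mice only mouse 2, at 13.3, had it above 0.00254.

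Suclg1, a subunit of succinyl-CoA ligase, had ENSMUST00000123159.7 at 3.28, 3.5, 3.2 and 6.2 FPKM in HC mice and at most 0.00563 in NLH mice, with Ctrl at 3.36 to 8.35 (adjusted limma p 0.000788 against HC and 0.0145 against Ctrl). The other transcripts of the gene together rose from 13.2 ± 1.06 to 17.2 ± 2.01 FPKM (SD of 4 mice, two-sided exact permutation test, p = 0.0286, the smallest that 4 mice against 4 allow). Trf, transferrin, had ENSMUST00000112645.7 at 3.78, 7.22, 9 and 8.07 in HC and at most 0.037 in NLH mice. Gabarapl2 had ENSMUST00000133628.1 at 12.8, 10.8, 11.9 and 14.9 in HC and 1.67, 3.20, 3.90 and 2.53 in NLH mice (adjusted limma p 0.0512), while its other transcripts were at 18.3 ± 1.16 and 19.7 ± 2.59, so the lower sum of this gene lay in 1 isoform.

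In the other direction, Kcnma1, the BK potassium channel, had ENSMUST00000179097.7 at most 0.000741 FPKM in HC mice and at 1.91, 1.48, 1.75 and 1.98 in NLH mice (log2 4.22, SE 0.19, adjusted limma p 0.000788), 18% ± 7.53 of the gene in NLH mice. Slit1, an axon guidance ligand, had ENSMUST00000166496.7 at most 0.00202 in HC and at 1.56, 4.03, 2.04 and 2.77 in NLH mice (adjusted limma p 0.00375). Shank1, a postsynaptic scaffold, had ENSMUST00000107934.1 at most 0.00134 in HC and at 0.885, 1.11, 2.95 and 1.54 in NLH mice (adjusted limma p 0.0219). Each of these isoforms was at or near 0 in all HC mice and above 0.8 in all NLH mice. Over the loci, the log2 differences were 0.03, -0.02 and 0.00, so the whole genes differed by far less than the isoforms. Ctrl mice had the Kcnma1 isoform at 0.000472, 0.526, 0.572 and 0.611 and the Shank1 isoform at most 0.00478 FPKM.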

How the data were processed

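The deposited table covers hippocampal RNA of 16 mice. Per the labels and the study's methods, the authors made total RNA libraries, aligned paired reads to mm10, assembled and merged transcripts with StringTie 1.2.3, and quantified them with Cufflinks. The aligner is HISAT2 in the methods and STAR 2.42a in the submitters' processing notes. Whether strand was kept is not given in the sources used here. The values deposited by the authors are FPKM per transcript and mouse, after their filter and without further scaling between mice. Depth was derived from the step size of FPKM in 1962 loci (60.5% to 63.9% of values of the 8 mice within 0.1 of a whole number of fragments of 200 bases, where chance gives 20%), and low depth leaves genes near 0.1 FPKM imprecise.

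FPKM were summed per gene name, and rows above 0 in any of the 8 mice were tested: 18030 of 18287 genes and 79347 of 80137 transcripts. limma 3.58.1 (R 4.3.3, with the package data.table at version 1.17.8) with trend and robust moderation was fitted to log2(FPKM + 0.1) of the 8 mice, with Benjamini-Hochberg adjustment over all rows and a threshold of 0.05. A fold change on this scale understates that of low genes. Comparisons with Ctrl and LH came from a fit over all 16 mice. The methods' test on FPKM and exact permutation tests were two-sided. Python 3.11.15, numpy 2.4.6, pandas 2.3.3, scipy 1.17.1 and matplotlib 3.10.9 were also used. P-values measure the spread between mice of 1 experiment.

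Named genes were those past the adjusted threshold, the 12 genes each way with a mean of at least 1 FPKM and the smallest p, 6 transcripts and 4 lncRNA genes each way by the same rule, up to 6 members of each list at an unadjusted p under 0.05, a few stress and PCR genes, and list members beyond these named after their values were seen. The isoforms of Kcnma1 and Shank1, and the whole-locus sums, were also chosen after that. The comparison, the genes and the lists were chosen with earlier results of these data known. On simulated data for NLH vs. HC with 200 features changed 2-fold, limma recovered 77% over 18030 genes and 32% over 79347 transcripts.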

Additional observations from a re-analysis of the deposited data

Results flagged for a closer look

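In each group of 4 mice, 145 named genes and markers were examined for a mouse far from the other 3, and 18 values were found. Chance gives about 1 in 20 groups. Some bear on genes described above. For Rpl31, HC mouse 4 was at 51.2 FPKM and the others at 45.3 to 45.7. For Tpt1, HC mouse 3 was at 81.1 and the others at 93.5 to 95.8, and the same mouse had Rn18s-rs5 at 490.5 against 605 to 622 and Tcf7l2 at 0.730 against 0.939 to 0.971. For 1700065J18Rik, NLH mouse 1 was at 1.06 and the others at 0.330 to 0.429.

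The other values from HC mice were Kmt2d at 6.34 in mouse 4 (others 3.93 to 3.96), and in mouse 2 Rpl15 at 14.3 (19.0 to 19.9), Mvk at 3.67 (2.25 to 2.43) and a lncRNA of the real time PCR set at 0.0173 (at most 0.00105). In NLH mouse 1, Crem was at 6.62 (others 4.00 to 4.37), Rps29 at 31.6 (51.4 to 54.4), Fgfr3 at 11.2 (14.97 to 15.13) and Miat at 18.8 (21.1 to 21.5). In NLH mouse 3, Tef was at 37.9 (29.7 to 30.7) and Baiap2 at 27.0 (24.3 to 24.4), and in NLH mouse 2 Trps1 was at 9.88 (8.18 to 8.37). The remaining 2 flags lie within rounding of 0: Pakap at 7.93e-05 in HC mouse 1 and Gm37240 at 3.4e-23 in NLH mouse 2.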

How the results depend on the processing

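The 10 genes past the adjusted threshold became 1 with 1 added to FPKM, 48 among genes with a mean of at least 1 FPKM, 26 with size factors, 4 in a fit over all 16 mice, 1 without robust moderation, 2146 at an unadjusted limma p under 0.05 and 2011 by the methods' test. They remained 10 in number with 0.01 added and over whole loci, and were 1 to 23 with single mice left out. The 32 transcripts became 54 with 0.01 and 12 with 1 added, 3 at a mean of at least 1 FPKM, 19 over 16 mice, 66 without robust moderation and 6547 unadjusted, and 19 to 50 with single mice left out. The 6177 of the methods' test became 148 after Benjamini-Hochberg adjustment and 3257 at a mean of at least 1 FPKM, and 4882 to 6989 with single mice left out. With size factors they were 6215, of which 3087 were higher and 3128 lower. With mouse number as a replicate block, 1 gene, 0 transcripts by limma and 4527 by the methods' test were called, but the numbers are not known to link mice, r between same-numbered mice with group means removed was -0.049 to 0.075 over 4 pairs, and 1 of 4 NLH mice correlated best with its own number.

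Over all results and alternatives, 2616 values kept direction and side of the threshold, 168 lost and 32 gained the threshold, 40 moved and 9 changed sign. With size factors the log2 difference turned to -0.068 for Cacnb4, -0.013 for Tcf4 and -0.081 for Grik2. With single mice left out it ran from -0.090 (without HC mouse 1) to 0.20 for Cacnb4, also turning without NLH mouse 3 or 4, from -0.050 (without NLH mouse 3) to 0.075 for Grik2, also turning without NLH mouse 2, and from -0.070 (without HC mouse 1) to 0.25 for 1700109K24Rik. The causes were not tested. Groups of 4 mice and the estimated depth limit what genes near 0.1 FPKM can show.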

Other observations

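Some genes of the PCR set of the study that are not described above had small differences between NLH and HC mice. Rbfox2, a neuronal splicing regulator, and Nub1, which targets NEDD8 conjugates, each differed by 0.16 on the log2 scale, Rab3a, a vesicle GTPase, by 0.17, and Tcf4, a transcription factor, by 0.09. Rbfox1, the paralog of Rbfox2 and a member of the splicing list, was at 1.19, 0.146, 2.05 and 0.707 FPKM in HC and 1.95, 5.53, 3.67 and 7.57 in NLH mice, with overlap of 1 NLH mouse and a log2 difference of 2.31 (SE 0.63, adjusted limma p 0.205). Miat, an abundant lncRNA of neurons, was at 21.2 to 27.0 in HC and 18.8 to 21.5 in NLH mice (log2 -0.19, unadjusted limma p 0.0704). Gm26859 was at 0.817 to 0.951 in HC and 0.707 to 0.782 in NLH mice, without overlap (log2 -0.22, unadjusted limma p 0.163).

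Rpl38, a ribosomal protein, was at 80.3, 6.01, 43.7 and 45.5 FPKM in HC and 89.3, 110.0, 116.7 and 87.4 in NLH mice, and HC mouse 2 was far below the others. Zfp1, a zinc finger protein, was at 1.36, 1.02, 0.875 and 1.35 in HC and 2.75, 3.23, 2.37 and 2.49 in NLH mice, with Ctrl at 0.919 to 1.68 (log2 1.18 from HC, adjusted limma p 0.0538).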
